A study of Mus musculus with 2 samples.

Results

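Telocyte-like fibroblasts were taken here as the cells that the authors annotated as fibroblasts and in which at least 2 of the 6 genes Foxl1, Bmp5, Bmp7, Wnt5a, F3 and Sox6 were detected, that is, had a value above 0 in the deposited matrix. The rule picked 480 of 987 fibroblasts and of 14097 cells in all, 463 of them in the library classed CIN_high and the other 17 in that classed CIN_low. They were set against the 507 fibroblasts in which none or 1 of the 6 genes was detected (503 CIN_high and 4 CIN_low cells). The cells came from adenomas of the distal colon of 25-week-old mice with the genotype Apcmin;LSL-mTERT, in which 1 copy of Apc, a brake on Wnt signalling, is truncated and a mouse Tert transgene lies behind a removable stop cassette. The study names the groups G4+T and G0+T, with 1 droplet library each on the 10x Genomics platform. All cells with the first barcode suffix were CIN_high and all with the second were CIN_low, but every cell name carries a G0 prefix, so neither library is assigned here to G4+T or G0+T. Neither the sex of the mice, nor how many went into a library, nor what removes the stop cassette is stated in the labels.

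In the mouse intestine, telocytes are thin, flat mesenchymal cells that lie directly under the epithelium and stretch along it with long processes. They carry much of the PDGF receptor Pdgfra and the transcription factor Foxl1, and they are known as a source of BMP ligands, which favour differentiation of the epithelium above the crypt, and of Wnt ligands such as Wnt5a. Deeper fibroblasts around the crypt base, often called trophocytes, carry Cd34 and Cd81 and secrete the BMP antagonist Grem1 and R-spondins, which sustain stem cells.

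A level below is the mean over cells of UMIs (unique molecular identifiers, each standing for 1 captured RNA molecule) per 10000 UMIs of the cell, and a fold is the ratio of 2 such levels, telocyte-like over other fibroblasts of the CIN_high library. Both sets of cells came from the same library, and cells are not replicates, so no test was possible and no p-value is given. Intervals are exact 95% intervals that cover counting error only. An interval beside a fold belongs to the ratio of summed UMIs and need not be centred on the fold. The telocyte-like cells held a median of 6986 UMIs and 2656 genes per cell (1082 to 29272 UMIs) and the other fibroblasts 6664 UMIs and 2544 genes (1252 to 18365 UMIs). The median share of mitochondrial transcripts was 4.90% in telocyte-like cells and 4.52% in other fibroblasts. Of the barcodes, 11 occurred in both libraries, 2 of them on telocyte-like cells of either library. Because the rule read the same cells, every difference between the telocyte-like cells and the rest is a description of how the chosen cells look.

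The rule took 47.9% of the CIN_high fibroblasts (463 of 966, 44.7% to 51.1%). Among these 966 cells, 223 had none of the 6 genes and 280 had 1, while 154 had 2, 106 had 3, 76 had 4, 81 had 5 and 46 had all 6. The genes contributed unequally. Bmp5, a BMP ligand on chromosome 9 (mm10, 75775364 to 75900310, plus strand), was detected in 96.5% of telocyte-like cells and in 40.0% of the other fibroblasts. Wnt5a (chromosome 14, 28504750 to 28527448, plus strand), a ligand of the branch of Wnt signalling that does not act through beta-catenin, was detected in 68.9% and 6.56%. Bmp7 (chromosome 2, 172868012 to 172940321, minus strand), a second BMP ligand, was detected in 63.3% and 3.78%. F3 (chromosome 3, 121723537 to 121735048, plus strand), tissue factor, which starts blood coagulation, was detected in 57.2% and 4.37%. Sox6 (chromosome 7, 115470872 to 116038796, minus strand), a transcription factor of the SoxD group, was detected in 37.4% of telocyte-like cells and in 1 of the 503 other cells. Foxl1 (chromosome 8, 121127940 to 121130644, plus strand) was the least often detected of the 6, in 24.6% of telocyte-like cells and 0.795% of the others. These shares were fixed in part by the choice of cells. Of the 602 endothelial cells of the library, with a median of 3715 UMIs against 6764 in fibroblasts, none had 2 or more of the genes, which allows a share of up to 0.611% (exact interval), and each gene was found in at most 2.16% of them.

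**Figure D1:**
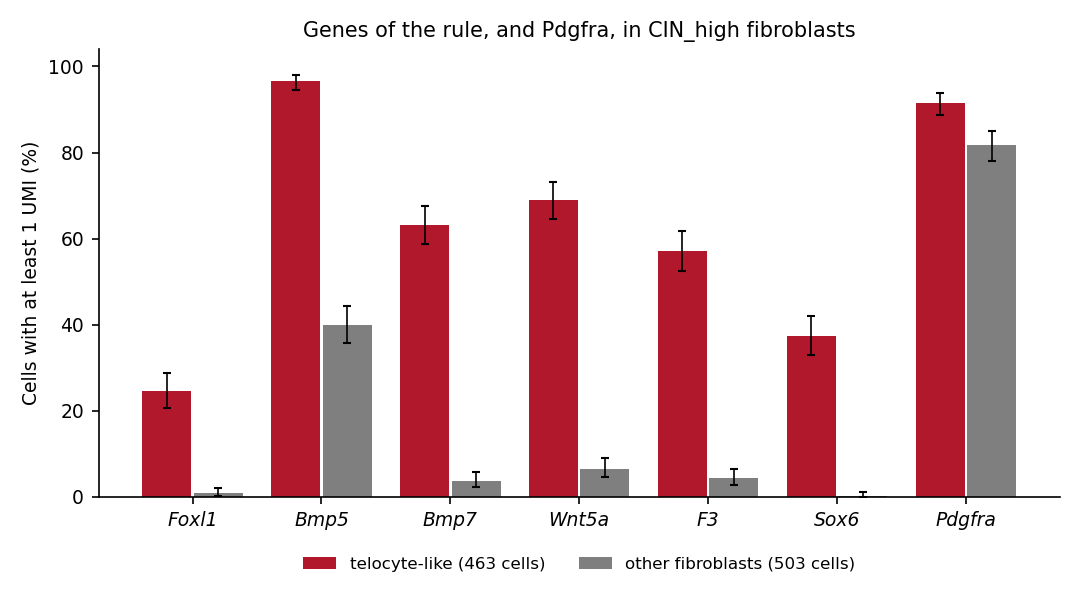
Percentage of cells with at least 1 UMI (vertical axis) for the 6 genes of the rule and for Pdgfra, in telocyte-like fibroblasts (red, left bar of each pair) and other fibroblasts (grey, right bar) of the CIN_high library, with exact 95% intervals for counting error. Bmp5 is found in 96.5% of the telocyte-like cells and Foxl1 in 24.6%, and Pdgfra, which the rule did not use, is common in both sets.

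The most frequent combination was Bmp5 with Wnt5a and no other gene of the rule, in 64 telocyte-like cells (13.8%). Next came the 5 genes without Foxl1 in 58 cells (12.5%), all 6 genes in 46 cells (9.94%), Bmp5 with Bmp7 in 41 cells and Bmp5, Bmp7 and Wnt5a in 40 cells. The genes tended to be found in the same cells, in ways the rule did not set. Among all CIN_high fibroblasts with Sox6, F3 was found in 88.5% (82.8% to 92.8%), against 16.8% of the fibroblasts without Sox6. Among fibroblasts with F3, Sox6 was found in 53.7% (47.7% to 59.5%), against 2.95% of those without. When the cells were chosen by at least 2 of the other 5 genes, the gene left out of the choice still had a higher level in the chosen cells, by 43.3-fold for Sox6, 14.7-fold for F3, 10.1-fold for Foxl1, 6.94-fold for Bmp7, 6.79-fold for Wnt5a and 4.24-fold for Bmp5.

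Outside the fibroblasts, the rule was met by 171 of 1316 epithelial cells of the CIN_high library, by 16 of 83 pericytes and by 14 of 2930 myeloid cells. F3 was found in 42.0% of the epithelial cells, and Bmp7 and Sox6 in 16.6% each. Foxl1 was found in 13.3% of the pericytes, close to the 12.2% of all fibroblasts of the library. Bmp5 was found in 31.3% of the pericytes, F3 in 16.9%, Wnt5a in 15.7%, and Bmp7 and Sox6 in 1.20% each. The epithelium held 68.0% of all F3 UMIs of the library, 40.8% of Sox6 and 32.6% of Bmp7, whereas the telocyte-like fibroblasts held 25.5%, 56.0% and 62.0% of them. The telocyte-like fibroblasts made up 7.48% of the cells of the library and held 90.5% of its Wnt5a UMIs, 81.5% of its Bmp5 UMIs and 72.3% of its Foxl1 UMIs. All of these shares are raised by the rule, which chose cells for holding UMIs of these genes.

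Pdgfra (chromosome 5, 75152292 to 75198215, plus strand) was not part of the rule. Its level per cell had a median of 7.01 UMIs per 10000 in telocyte-like cells (quartiles 2.95 and 17.5, highest 67.2), against a median of 3.08 in other fibroblasts (quartiles 1.29 and 5.25, highest 42.5). The 2 distributions overlap in their lower parts, and the upper quartile of the telocyte-like cells lies far above that of the other cells. The mean levels were 12.1 in telocyte-like and 4.04 in other fibroblasts, 3.00-fold apart (2.73 to 3.09). Pdgfra was found in 91.6% of the telocyte-like cells and in 81.7% of the others, and in 79.5% and 65.5% after each cell had been thinned to 3500 UMIs. It was found in 1.28% of T and NK cells, which held a median of 3442 UMIs.

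Most of this difference in Pdgfra lay among cells with 4 or more genes of the rule. The Pdgfra level was 4.39 in fibroblasts with none of the 6 genes, 3.76 with 1, 4.66 with 2, 7.59 with 3, 15.0 with 4, 22.2 with 5 and 25.0 with all 6. Cells just inside the line, with 2 genes, thus lay close to those just outside it, with 1 gene. The same comparison of 2 genes with 1 gave levels of 1.51 and 0.676 for the smooth muscle actin Acta2, 12.6 and 13.4 for Grem1, and 0.617 and 0.217 for the protein C receptor Procr. At all 6 genes, Acta2 reached a level of 16.8 and Procr 9.44, and Grem1 was at 1.05. Cd34 and the proteoglycan Dcn had their highest levels, 4.33 and 92.7, in cells with none of the genes, and Cd34 had no UMI in cells with 5 or 6. Wnt4, a Wnt ligand, did not follow this order, with its highest level at 3 genes (3.80) and levels of 0.698 at none and 1.55 at 6.

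**Figure D2:**
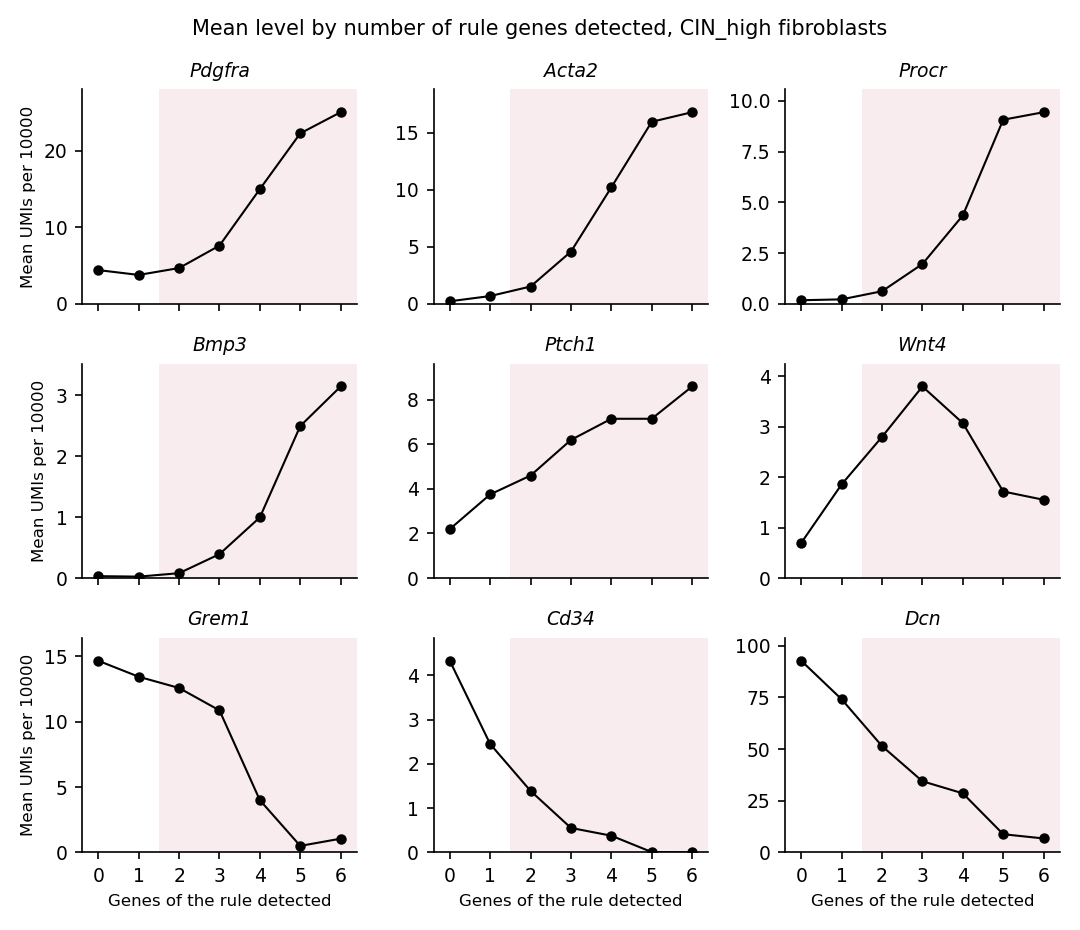
Mean level in UMIs per 10000 (vertical axes, each from 0) of 9 genes outside the rule against the number of genes of the rule detected in a cell (horizontal axis), CIN_high fibroblasts, with cells inside the rule shaded. Pdgfra, Acta2, Procr and Bmp3 stand highest at 5 or 6 genes, Wnt4 is highest at 3, and Grem1, Cd34 and Dcn are low at 5 and 6 genes.

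Clustering of the 966 fibroblasts without the 6 genes placed the telocyte-like cells in 2 different settings. Clusters 3 and 7, of 133 and 61 cells, consisted almost wholly of them (133 of 133 and 60 of 61), and together these 193 cells made up 41.7% of the telocyte-like cells (37.2% to 46.3%). Of the 193 cells, 161 (83.4%) had 4 or more genes of the rule. The other 270 telocyte-like cells lay in clusters that they shared with other fibroblasts, chiefly cluster 5 (77 of 105 cells), cluster 2 (55 of 155), cluster 6 (37 of 98), cluster 8 (35 of 48) and cluster 1 (33 of 165). Only 42 of these 270 cells (15.6%) had 4 or more of the genes, with a median of 2, although their median depth of 7433.5 UMIs was above the 6404 of the cells in clusters 3 and 7. Telocyte-like is therefore used below as a name for the rule. Bmp5, Bmp7, Wnt5a, F3, Sox6, Foxl1 and Pdgfra had higher mean levels in the 193 cells than in the 270. For the genes of the rule this follows in part from the choice, since clusters 3 and 7 were set apart because over 90% of their cells met it.

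**Figure D3:**
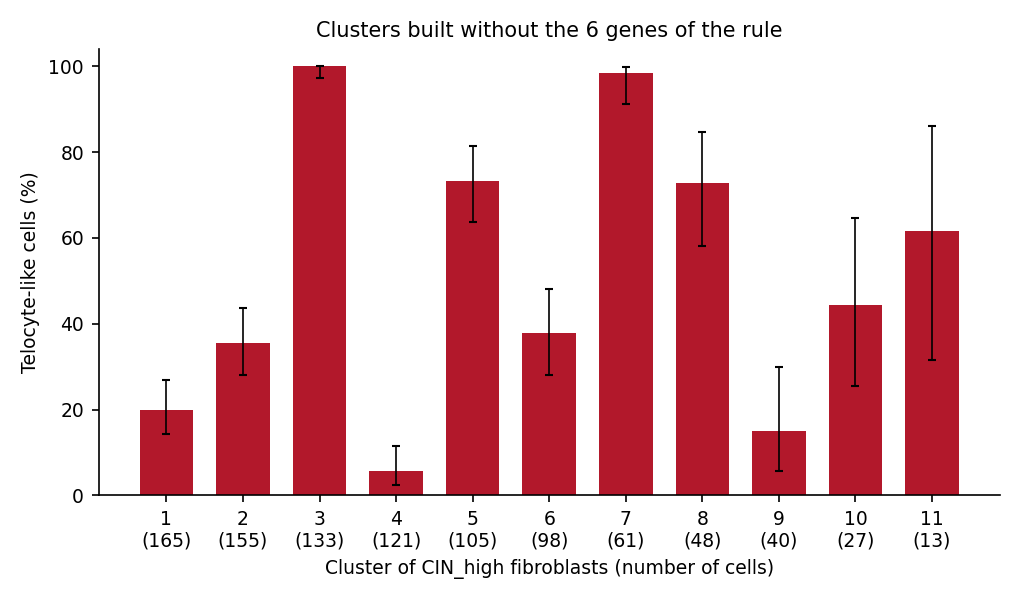
Percentage of telocyte-like cells (vertical axis) in each of 11 clusters of the CIN_high fibroblasts made without the 6 genes of the rule, with the number of cells in brackets and exact 95% intervals for counting error. Clusters 3 and 7 consist of telocyte-like cells at 100% and 98.4%, while cluster 4 holds 5.79%.

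Levels of single genes in these sets of cells are given as descriptions, since all but the 6 genes of the rule could enter the clustering. Pdgfra was at 22.6 in the telocyte-like cells of clusters 3 and 7, 4.66 in the remaining telocyte-like cells and 4.04 in other fibroblasts. Sox6 was at 3.73 in clusters 3 and 7, 0.139 in the remaining telocyte-like cells and 0.00339 in other fibroblasts, and F3 at 8.44, 0.984 and 0.120. Foxl1 was found in 35.8% of the telocyte-like cells of clusters 3 and 7, in 16.7% of the remaining ones and in 0.795% of other fibroblasts. Grem1 followed the opposite order, at 1.41, 11.9 and 14.0, as did the Wnt antagonist Sfrp1, at 0.829, 14.8 and 21.3. For Pdgfra, Grem1 and Sfrp1, the remaining telocyte-like cells were thus nearer to the other fibroblasts than to clusters 3 and 7. Bmp4 differed less between the 3 sets, at 9.19, 7.94 and 6.43.

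Over the genes outside the rule, 9818 were measured in CIN_high fibroblasts, that is, had a UMI in at least 5% of the cells of either side and at least 30 UMIs in all. Of these, 1026 (10.5%) were at least 1.5-fold higher in telocyte-like than in other fibroblasts and 701 (7.14%) at least 1.5-fold lower, with a median log2 ratio of 0.06. These shares are the background for the counts in each gene group below.

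Genes of Pdgfra-high subepithelial fibroblasts other than those of the rule were mostly higher in the telocyte-like cells. Of 14 listed, 13 were measured, 11 at least 1.5-fold higher and 1 lower, with a median log2 ratio of 1.20. These counts are over all telocyte-like cells, and the 11 genes differed in clusters 3 and 7, where Pdgfra was high. Procr was at 8.42 there against 0.197 in other fibroblasts, but Hhip was at 0.180 against 0.187. Procr averaged 3.89 in telocyte-like and 0.197 in other fibroblasts, 19.7-fold apart (14.2 to 23.6). In single cells it had a median of 1.22 UMIs per 10000 in telocyte-like cells and a highest value of 56.6, while at least 3 in 4 of the other fibroblasts had none and the highest value there was 5.43. Fgf9, a growth factor, averaged 0.531 in telocyte-like and 0.0486 in other fibroblasts, 10.9-fold higher, and was at 1.24 in clusters 3 and 7 but 0.0218 in the remaining telocyte-like cells. Agt, angiotensinogen, was 6.19-fold higher and had its highest level among telocyte-like cells in cluster 5, at 1.98. Tnc, the matrix protein tenascin C, was 2.30-fold higher and the Notch ligand Dll1 2.22-fold. Nsg1, a protein of neuronal endosomes, was the member that was lower, by 2.20-fold.

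The list of trophocyte and adventitial genes showed the reverse. Of 12 listed, 11 were measured, none was 1.5-fold higher and 8 were lower, with a median log2 ratio of -1.50. Pi16, a marker of adventitial fibroblasts, averaged 0.305 in telocyte-like and 2.82 in other fibroblasts, 9.26-fold lower, and the tetraspanin Cd81 was 8.63-fold lower. Cd34, a surface sialomucin, averaged 0.651 in telocyte-like and 3.28 in other fibroblasts, 5.04-fold lower, and was found in 21.4% and 66.2% of the cells. In clusters 3 and 7 a single Cd34 UMI was found in 193 cells. The chemokine-scavenging receptor Ackr4 was 8.79-fold lower and the complement regulator Cd55 4.04-fold lower. Pi16, Cd81 and Ackr4 were found in only 23.9%, 25.0% and 8.15% of other fibroblasts. They were leading genes of cluster 4, with 121 cells, 7 of them telocyte-like. So were Gas1, Sfrp4, Sema3d, Il33 and Prss23, named further below. Their folds thus set the telocyte-like cells largely against a subset of the other fibroblasts. Among 10 genes of Pdgfra-low lamina propria fibroblasts, 9 were measured and the direction was mixed over all telocyte-like cells. Adamdec1, a metalloprotease gene of the gut stroma, was 1.74-fold higher, while Lum, lumican, was 7.09-fold lower and Fbln1, a fibulin, 2.51-fold lower. Several members differed between clusters 3 and 7 and the remaining telocyte-like cells. Apoe was at 1.82 in clusters 3 and 7, 24.3 in the remaining cells and 12.1 in other fibroblasts. Fgfr2 was at 0.168, 3.10 and 1.61 in these sets, and Col15a1 at 0.0827, 1.96 and 1.56. Adamdec1 and Cxcl12 were not lower in clusters 3 and 7 than in other fibroblasts. Of 9 general fibroblast genes, all measured, Pdgfra was higher and Dcn and Thy1 lower by 2.58-fold and 2.1-fold.

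**Figure D4:**
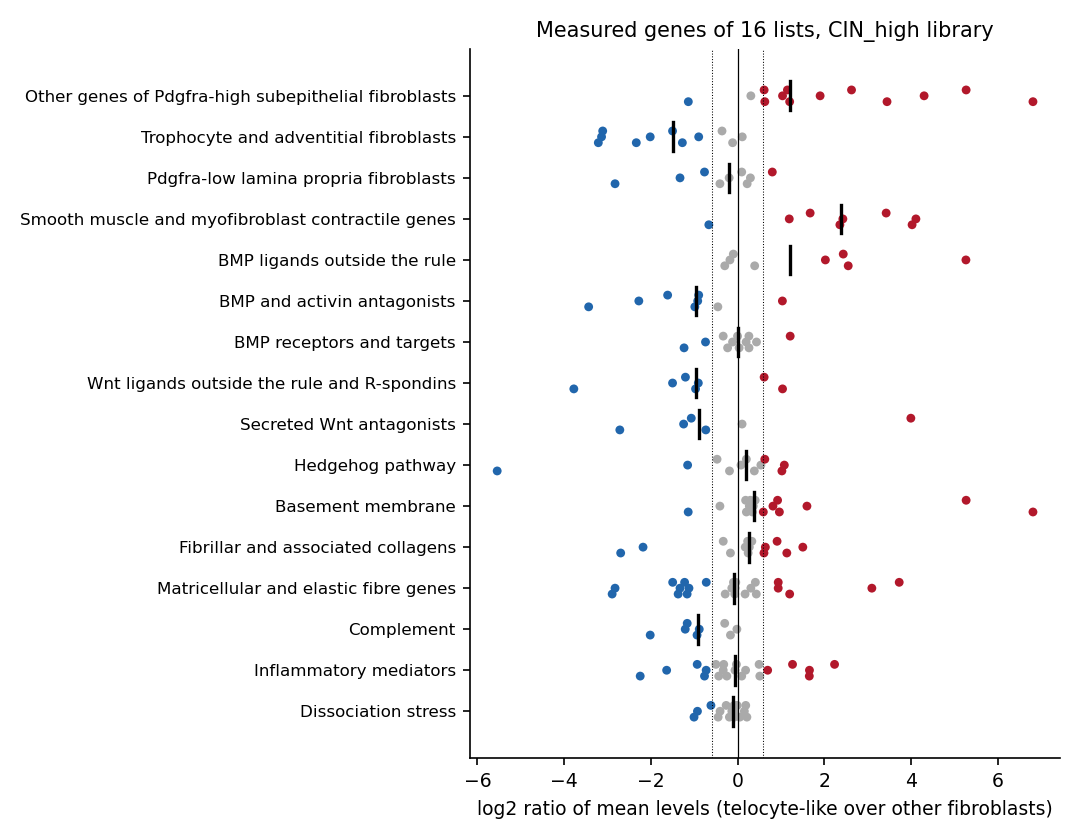
Log2 ratio of mean levels, telocyte-like over other fibroblasts of the CIN_high library (horizontal axis), for the measured genes of 16 lists (rows), with red points at least 1.5-fold higher, blue points at least 1.5-fold lower, grey points between the dotted lines of 1.5-fold, and black bars at list medians. The medians are 2.40 for contractile genes and -1.50 for trophocyte and adventitial genes.

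Contractile genes of smooth muscle and myofibroblasts were the list with the highest median log2 ratio among lists with at least 5 measured genes, at 2.40, with 7 of 8 measured genes at least 1.5-fold higher and 1 lower. Acta2 (chromosome 19, 34241090 to 34255590, minus strand) averaged 7.69 in telocyte-like and 0.472 in other fibroblasts, 16.3-fold higher (15.4 to 21.7). It was found in 56.4% of telocyte-like cells and 12.9% of other fibroblasts, and in 50.1% and 9.07% after thinning. T and NK cells showed it in 0.855%. The median telocyte-like cell had 1.73 UMIs of Acta2 per 10000 and the highest 78.7, whereas at least 3 in 4 of the other fibroblasts had none. Within the telocyte-like cells, Acta2 was found in 93.3% of clusters 3 and 7, at a level of 16.4, and in 30.0% of the remaining cells, at 1.47. Tagln, the actin-binding protein transgelin (chromosome 9, 45929619 to 45936058, minus strand), was 17.3-fold higher, Myl9, a myosin light chain, 10.8-fold, Synpo2, an actin-bundling protein, 5.39-fold and Myh11, smooth muscle myosin heavy chain, 5.14-fold. Mrvi1, a partner of the cyclic GMP-dependent kinase of smooth muscle, was 12.9-fold higher. The intermediate filament gene Des was 1.58-fold lower. Pericytes of the library, which also carry these genes, had an Acta2 level of 43.0, above both kinds of fibroblast. Of the 7 pericyte markers, 3 were measured, Rgs5, Abcc9 and Kcnj8, with a median log2 ratio of 0.19. Rgs5 was 2.48-fold lower in telocyte-like cells, and Abcc9 and Kcnj8 were within 1.5-fold. In clusters 3 and 7, however, Abcc9 was at 1.10 and Kcnj8 at 0.422, against 0.519 and 0.223 in other fibroblasts. The remaining telocyte-like cells had lower levels of both, at 0.256 and 0.135. Higd1b had no UMI in either set. The summed level of the 7 was 1.17 in telocyte-like and 1.31 in other fibroblasts.

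The stretch before the start of Myl9 is shown because it holds a CArG box, the motif bound by serum response factor at many smooth muscle genes. It comprises the 250 bases upstream of the start at chr2:156775214-156775463 (RefSeq, GRCm38.p6, plus strand), with the CArG box in capitals, its first base at -161 from the start.

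Myl9 upstream: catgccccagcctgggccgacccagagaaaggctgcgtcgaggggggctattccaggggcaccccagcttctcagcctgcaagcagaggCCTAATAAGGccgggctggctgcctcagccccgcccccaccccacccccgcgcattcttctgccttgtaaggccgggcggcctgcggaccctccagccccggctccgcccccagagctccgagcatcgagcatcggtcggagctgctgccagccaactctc

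The CArG box was searched for only as CC, 6 bases of A or T, and GG, with no mismatch allowed. In this exact form it was in 1.47% of the 32851 upstream windows of mouse genes. Of the 6 contractile genes with a window, Acta2, Myl9, Mylk, Synpo2, Tpm1 and Tpm2, the exact form was in 1. Variant CArG boxes were not counted, so the other 5 genes may still hold such sites. A match of letters is no evidence that the site is used, and this window covers only part of a promoter.

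Basement membrane genes are those of the sheet between the stroma and the epithelium. Of 18 listed, 16 were measured, 7 at least 1.5-fold higher and 1 lower, with a median log2 ratio of 0.39. Col4a5, a chain of type IV collagen, had the largest ratio of all genes that met the size rule for named genes. It averaged 1.14 in telocyte-like and 0.0101 in other fibroblasts, where it had 4 UMIs, against 394 UMIs in the telocyte-like cells, 112.5-fold apart (36.8 to 350). Col4a6, its partner chain, had 106 UMIs in telocyte-like cells and none in other fibroblasts, at least 38.7-fold higher when the others are set to 3 UMIs over the group. The telocyte-like fibroblasts held 91.4% of the Col4a5 UMIs and 95.5% of the Col4a6 UMIs of the library. Lama5, a laminin chain, was 3.03-fold higher, Col18a1 1.95-fold and Nid2 1.90-fold, while the laminin chain Lamb2 was 2.20-fold lower. For Nid2 the difference lay outside clusters 3 and 7, with levels of 0.155 there, 0.570 in the remaining telocyte-like cells and 0.209 in other fibroblasts. Within the telocyte-like cells, Col4a5 was at 3.74 in cluster 7, 1.99 in cluster 3, 0.371 in cluster 5 and without a UMI in clusters 6 and 8.

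Col4a5 and Col4a6 lie head to head on chromosome X, with starts 1343 bases apart in RefSeq. The 250 bases upstream of each start are shown because both lie in the stretch between these 2 genes. Col4a5 is at chrX:141475169-141475418 on the plus strand and Col4a6 at chrX:141474077-141474326 on the minus strand (RefSeq, GRCm38.p6). Capitals mark the hexamer GGGCGG, the core of a GC box, or CCGCCC, the same hexamer on the other strand.

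Col4a5 upstream: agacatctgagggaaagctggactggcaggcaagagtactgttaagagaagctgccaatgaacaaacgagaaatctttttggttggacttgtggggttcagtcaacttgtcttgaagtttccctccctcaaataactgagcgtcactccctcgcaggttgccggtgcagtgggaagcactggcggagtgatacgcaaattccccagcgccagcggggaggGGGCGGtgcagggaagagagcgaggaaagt

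Col4a6 upstream: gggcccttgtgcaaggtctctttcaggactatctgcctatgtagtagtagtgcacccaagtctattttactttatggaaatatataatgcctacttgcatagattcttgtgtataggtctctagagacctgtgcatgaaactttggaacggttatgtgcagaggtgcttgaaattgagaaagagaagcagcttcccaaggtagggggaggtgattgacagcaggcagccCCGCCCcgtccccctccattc

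The hexamer begins at -30 from the start of Col4a5 and at -21 from that of Col4a6, and 32.7% of all upstream windows hold it on one strand or the other, so its presence is common. The genes were often found in the same cells. Col4a6 was detected in 63 of the 138 telocyte-like cells with Col4a5 (45.7%, 37.2% to 54.3%) and in 13 of the 325 without it (4.00%, 2.15% to 6.74%).

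The measured genes of a list of BMP and related ligands outside the rule, activin subunits among them, were higher or within 1.5-fold. Of 10 listed, 8 were measured, 4 at least 1.5-fold higher (Bmp3, Bmp2, Inhbb and Inhba) and none lower, with a median log2 ratio of 1.21. The related gene Gdf10 was found in 4.77% of other fibroblasts and so was not measured. It had 36 UMIs there, 2 in telocyte-like cells outside clusters 3 and 7, and none within these clusters. Bmp3, an atypical BMP ligand (chromosome 5, 98854415 to 98884396, plus strand), averaged 1.03 in telocyte-like and 0.0267 in other fibroblasts, 38.5-fold higher (15.5 to 57.0). Of its 321 UMIs in telocyte-like cells, 308 were in clusters 3 and 7. Bmp2 (chromosome 2, 133552159 to 133562885, plus strand) averaged 2.13 in telocyte-like and 0.522 in other fibroblasts, 4.07-fold higher (3.47 to 4.81). Among the telocyte-like cells, its level was 7.16 in cluster 7, 4.85 in cluster 8 and 1.38 in cluster 3. The activin subunits Inhbb and Inhba were 5.87-fold and 5.42-fold higher. Bmp4, by contrast, averaged 8.46 in telocyte-like and 6.43 in other fibroblasts, 1.32-fold higher (1.24 to 1.39), below the line of 1.5-fold, and was found in 96.1% and 86.3% of the cells.

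The secreted BMP and activin antagonists showed the opposite direction. Of 12 listed, 8 were measured, with 6 of them at least 1.5-fold lower, 1 higher and a median log2 ratio of -0.95. Grem1 (chromosome 2, 113746164 to 113758646, minus strand), which binds BMP ligands and keeps them from their receptors, averaged 7.52 in telocyte-like and 14.0 in other fibroblasts, 1.86-fold lower. It was found in 46.9% and 88.7% of the cells, in 45.3% and 82.1% after thinning, and in 1.71% of T and NK cells. The median telocyte-like cell had no Grem1 UMI (upper quartile 9.55, highest 98.1), and the median of the other fibroblasts was 9.01 UMIs per 10000 (quartiles 3.43 and 19.4, highest 121.3). The ranges overlap throughout, and even in clusters 3 and 7 the highest value was 44.4. The telocyte-like cells of cluster 6 had a mean Grem1 level of 31.9 and those of cluster 7 a level of 0.0786. Chrdl1, a chordin-like antagonist, was 4.84-fold lower, Chrdl2 3.06-fold and Chrd 1.98-fold. Twsg1, which can both help and hinder BMP signalling, was 2.05-fold higher. Among 17 BMP receptors and targets, 12 were measured, and Id1, a target of BMP signalling, was 2.32-fold higher, while the decoy receptor Bambi was 2.35-fold lower and Id4 1.67-fold lower. Their median log2 ratio was 0.02.

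Wnt genes went in both directions. Of 11 Wnt ligands and R-spondins outside the rule, 7 were measured, 2 at least 1.5-fold higher and 5 lower, with a median log2 ratio of -0.97. Wnt4 averaged 2.76 in telocyte-like and 1.34 in other fibroblasts, 2.05-fold higher (1.70 to 2.14), and its level among telocyte-like cells was 7.5 in cluster 5, against 1.44 in clusters 3 and 7, where it was close to the 1.34 of other fibroblasts. Wnt5b was 1.53-fold higher (1.06 to 2.04). Rspo3, the R-spondin that amplifies Wnt signals at the crypt base, averaged 0.269 in telocyte-like and 0.761 in other fibroblasts, 2.83-fold lower. Rspo1 was 2.30-fold lower, Wnt2b 1.96-fold and Wnt2 1.87-fold, and Wnt9a, with 2 UMIs in telocyte-like cells and 31 in others, had a ratio of 0.0730 (0.00722 to 0.245). Of 10 secreted Wnt antagonists, 6 were measured and 4 were lower, Sfrp4 by 6.56-fold, Sfrp1 by 2.37-fold, Sfrp2 by 2.1-fold and Frzb by 1.66-fold. Wif1 (chromosome 10, 121033960 to 121100650, plus strand), an inhibitor that binds Wnt proteins, was the 1 that was higher. It averaged 1.42 in telocyte-like and 0.0891 in other fibroblasts, 16-fold higher (10.6 to 22.9), and was found in 70.7% of the telocyte-like cells of cluster 3. The epithelium nevertheless held 92.2% of the Wif1 UMIs of the library and the telocyte-like cells 5.98%. Of 20 Wnt receptors and targets, 14 were measured, Lef1 and Fzd2 were higher and Znrf3, Fzd5 and Fzd4 lower.

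Among 12 Hedgehog genes, 11 were measured, 3 at least 1.5-fold higher and 2 lower, with a median log2 ratio of 0.20. Ptch1, the Hedgehog receptor and also a target of the pathway, averaged 6.22 in telocyte-like and 3.06 in other fibroblasts, 2.03-fold higher (1.84 to 2.15). Its median per cell was 4.62 UMIs per 10000 in telocyte-like cells (quartiles 1.86 and 8.99) and 1.82 in other fibroblasts (quartiles 0 and 4.47), so most of both ranges overlap. Foxf2, a transcription factor of gut mesenchyme, was 2.11-fold higher and Hhip, which binds Hedgehog ligands, 1.55-fold. Hhip was at 0.180 in clusters 3 and 7, 0.366 in the remaining telocyte-like cells and 0.187 in other fibroblasts. Gli1, the other common target, averaged 0.315 in telocyte-like and 0.241 in other fibroblasts, a ratio of 1.31 with an interval that includes 1 (0.908 to 1.66). The co-receptors Gas1 and Boc were lower. Gas1 averaged 0.0157 in telocyte-like and 0.733 in other fibroblasts, 46.6-fold lower, and had no UMI in clusters 3 and 7. It was a leading gene of cluster 4 and was found in 15.1% of other fibroblasts.

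Growth factor genes were mixed in direction. Of 11 EGF family genes, 6 were measured. Nrg1, a ligand of the ErbB receptors, averaged 3.74 in telocyte-like and 0.999 in other fibroblasts, 3.75-fold higher (3.26 to 4.18), while Hbegf and Btc were 1.90-fold and 1.65-fold lower. The Nrg1 level among telocyte-like cells was 10.5 in cluster 7, 8.39 in cluster 5 and 6.43 in cluster 8, but 0.564 in cluster 3, so the clusters 3 and 7 differ in this gene. Myeloid cells held 70.9% of the Nrg1 UMIs of the library and the telocyte-like cells 20.0%. Of 16 FGF and PDGF genes, 11 were measured and 5 were higher, Fgf9, Pdgfra, Pdgfd, Pdgfa and Fgf1, while Fgf2 was 1.55-fold lower. Few cells carry the difference in Pdgfa, which was found in 5.18% of telocyte-like cells and 7.55% of others, at a level of 1.56 in the telocyte-like cells of cluster 8 and 0.0484 in clusters 3 and 7, against 0.105 in other fibroblasts. Of 13 genes of the TGF-beta pathway, all measured, Ltbp2, Tgfbi and Tgfbr2 were higher, by 4.07-fold, 2.66-fold and 1.63-fold, and Tgfb3 and Ltbp4 lower. Among 11 Notch genes, 5 were measured and only Dll1 passed the line of 1.5-fold. In the IGF axis, with 8 of 9 genes measured, the binding protein Igfbp3 was 4.30-fold higher and Igfbp6 3.94-fold lower. Among telocyte-like cells, Igfbp3 was at 7.25 in cluster 3 and 8.56 in cluster 5. In cluster 7 it was at 0.598, below the 0.927 of other fibroblasts. Igfbp4 was at 2.61 in clusters 3 and 7, 34.3 in the remaining telocyte-like cells and 27.9 in other fibroblasts.

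Matrix genes differed in both directions. Of 16 fibrillar and associated collagens, 14 were measured, 5 were higher and 2 lower. Col12a1 was 2.84-fold higher and the type VI chains Col6a2, Col6a1 and Col6a3 were 2.20-fold, 1.88-fold and 1.53-fold higher, while Col8a1 was 6.47-fold and Col14a1 4.53-fold lower. Among 26 matricellular and elastic fibre genes, 24 were measured, 5 were higher and 9 lower. Ogn, osteoglycin, averaged 17.8 in telocyte-like and 2.08 in other fibroblasts, 8.56-fold higher (7.31 to 8.59), with a median per cell of 10.9 UMIs per 10000 against 0. Fn1, fibronectin, was 1.92-fold higher, while the microfibril gene Mfap5 was 7.42-fold lower and Emilin2 2.82-fold lower. Of 19 proteases and inhibitors, 16 were measured, 3 were higher and 4 lower. Mmp10 had 668 UMIs in telocyte-like cells and 5 in others but was found in 8.21% and 0.398% of the cells, and 505 of the 668 UMIs lay outside clusters 3 and 7. Plau, urokinase, was 10.7-fold higher.

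Immune signalling genes were mixed as well. Of 23 inflammatory mediators, 21 were measured, 5 were higher and 5 lower. Cxcl14, a chemokine, averaged 9.48 in telocyte-like and 2.01 in other fibroblasts, 4.72-fold higher. Cxcl9 and Cxcl10, chemokines induced by interferon, were 2.41-fold and 1.62-fold higher. Il33, an alarmin, was 4.74-fold lower, Il6 3.11-fold and Ccl11, an eosinophil chemokine, 1.69-fold. The cytokine Il11 had 359 UMIs in telocyte-like cells and 58 in others, yet it was found in 7.78% and 8.15% of the cells, and its level was 5.62 in the telocyte-like cells of cluster 8 and 0.0872 in clusters 3 and 7. Of 9 complement genes, 8 were measured, none was higher and 5 were lower, with a median log2 ratio of -0.91. C3 averaged 12.8 in telocyte-like and 28.5 in other fibroblasts, 2.24-fold lower, and stood at 4.13 in clusters 3 and 7 against 18.9 in the remaining telocyte-like cells. Of 9 prostaglandin genes, 7 were measured, and Hpgd, which inactivates prostaglandins, and Ptgs1, which makes them, were 6.33-fold and 2.01-fold higher. Hpgd was at 6.09 in the telocyte-like cells of cluster 7 and 1.26 in those of cluster 3. Of 22 semaphorins and other guidance genes, 16 were measured, 4 were higher (Sema3f by 5.84-fold) and 6 lower (Sema3d by 13.6-fold). Sema3d was a leading gene of cluster 4 and was found in 11.3% of other fibroblasts.

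The dissociation stress and p53 genes that passed the line of 1.5-fold were all lower. Of 16 dissociation stress genes, all measured, 3 were lower and none higher, Nr4a1 by 2.0-fold, Atf3 by 1.90-fold and Dnajb1 by 1.53-fold, with a median log2 ratio of -0.11. Of 12 p53 targets, 11 were measured and 2 were lower, Cdkn1a by 2.33-fold and Sesn2 by 2.14-fold. Of 14 interferon-induced genes, 11 were measured, with Ifit2 and Ifi27 higher and Isg15 and Irf7 lower. Only 4 of 18 cell cycle genes were measured, and Mcm3 was lower. Tert had no UMI in either set of CIN_high fibroblasts, that is, it was not detectable at this depth.

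Beyond the lists, the genes with the largest ratios included Smoc1, a secreted calcium-binding protein, 39.8-fold higher (18.7 to 137.9, with 5 UMIs in other fibroblasts), Emid1, 26.8-fold, the homeobox gene Rhox5, 25.8-fold, Rbp4, the carrier of retinol in blood, 19.1-fold, and Ednrb, an endothelin receptor, 13.8-fold. Rbp4 averaged 5.45 in telocyte-like and 0.286 in other fibroblasts, and its level was 12.5 in clusters 3 and 7 but 0.403 in the remaining telocyte-like cells. Ednrb was at 3.60 in cluster 7 and 0.550 in cluster 3. On the lower side stood the neuropeptide Y receptor Npy1r, 8.52-fold, the transcription factor Foxp2, 6.08-fold, the protease Prss23, 5.97-fold, and Lbp, which binds bacterial lipopolysaccharide, 5.45-fold. In this order, they were found in 28.2%, 30.2%, 17.5% and 30.8% of other fibroblasts, so each fold rests on a part of those cells. Lbp was found in 27.4% of the telocyte-like cells outside clusters 3 and 7.

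Single clusters had their own leading genes, ranked over all cells of a cluster, telocyte-like or not, against the cells of the other clusters. Cluster 3 was led by Tagln, Tnni2, Serpind1, Brinp1 and Acta2, and cluster 7 by Ednrb, Ano1, Hpgd, Glp2r and Col4a6. Cluster 5, in which 73.3% of the cells were telocyte-like, was led by Agt, Itih5, Spock3, Nid2 and Nrg1, and cluster 8, at 72.9%, by Il11, Saa3, Inhba, Ces1g and Cxcl5. These genes defined the clusters and are given as descriptions. Wnt5a was at similar levels in the telocyte-like cells of clusters 3, 7 and 8, at 5.21, 5.76 and 5.71, but those of cluster 8 had a Grem1 level of 17.4, against 2.0 in cluster 3. Ano1, a chloride channel known from interstitial cells of Cajal, was found in 33.3% of the telocyte-like cells of cluster 7 and in 1.5% of those of cluster 3. Of the 4 markers of interstitial cells of Cajal, Ano1 and Etv1 were measured and both were higher in telocyte-like cells. Kit had no UMI in clusters 3 and 7, 11 UMIs in the remaining telocyte-like cells and 6 in other fibroblasts. Prkcq had no UMI in either set. The summed level of the 4 markers was 0.667 in telocyte-like and 0.328 in other fibroblasts.

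**Figure D5:**
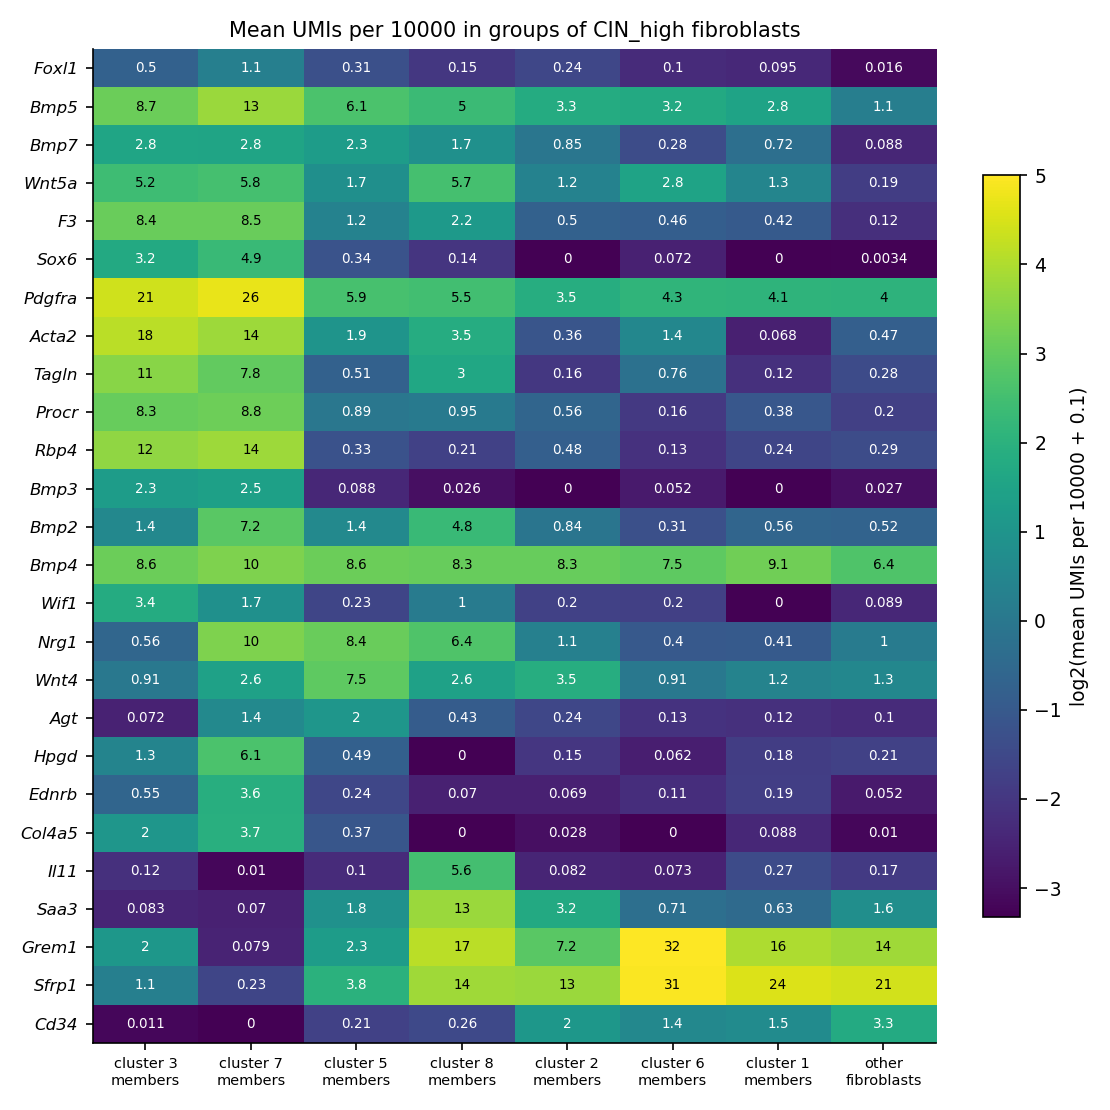
Mean level in UMIs per 10000 (printed in each cell, colour on a log2 scale with 0.1 added) of 26 genes (rows) in the telocyte-like cells of 7 clusters and in the other fibroblasts of the CIN_high library (columns). Clusters 3 and 7 share high Pdgfra, Acta2 and Rbp4 and low Grem1 and Sfrp1, and Nrg1 stands at 0.564 in cluster 3 and 10.5 in cluster 7.

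Genes of other cell types were checked in the same way. No marker of endothelium (7 listed) or of enteric glia (5 listed) was measured, and 4 of the 5 glial markers had no UMI in telocyte-like cells. Of 7 epithelial markers, 5 were measured and Epcam was 1.79-fold higher (0.128 in clusters 3 and 7, 0.369 in the remaining telocyte-like cells and 0.150 in other fibroblasts), with summed levels of 1.23 in telocyte-like and 1.18 in other fibroblasts. Of 8 leukocyte markers, 6 were measured and C1qa was 1.87-fold lower, with summed levels of 2.44 in telocyte-like and 3.07 in other fibroblasts. Of 6 mesothelial markers 1 was measured and of 6 markers of fibroblastic reticular cells 2, and none passed the line. Of 6 neutrophil markers, 4 were measured and 3 were higher, S100a8 by 2.63-fold, S100a9 by 2.51-fold and Retnlg by 2.36-fold, and their summed level had a mean of 8.99 in telocyte-like and 4.60 in other fibroblasts but a median of 1.85 and 2.18. Without the cells that a doublet caller marked, the log2 ratio was -0.01 for S100a8 and -0.20 for Retnlg. Cluster 10, of 27 cells led by leukocyte genes, held 12 telocyte-like cells, and cluster 11, of 13 cells led by epithelial genes, held 8. Without these 2 clusters, 1047 genes were at least 1.5-fold higher and 728 lower.

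The CIN_low library held only 21 fibroblasts, so the same comparison could not be made there and its cells are given as counts. By the rule, 17 of the 21 were telocyte-like (81.0%, 58.1% to 94.6%), with a median of 11673 UMIs. The depth of the fibroblasts differed between the libraries, and the shares were not compared at equal depth. As a share of all cells, telocyte-like fibroblasts came to 7.48% in CIN_high (6.84% to 8.17%) and 0.215% in CIN_low (0.125% to 0.344%). A difference between the libraries cannot be told apart from one between mice, tissue pieces or preparations. Wnt5a was found in all 17 cells (190 UMIs), Bmp5 in 16 (85 UMIs), Pdgfra in 14 (131 UMIs), Bmp7 in 12 (28 UMIs), Foxl1 in 6 (8 UMIs), F3 in 4 (44 UMIs) and Sox6 in 2 (5 UMIs). Of the 17 cells, 8 had 4 or more genes of the rule and none had all 6. Acta2 was found in 14 of them, Grem1 in 11 with 256 UMIs, and the acute phase gene Saa3 in 10 with 1767 UMIs. Bmp3, Fgf9 and Col4a6 had no UMI in these cells, and with 17 cells their RNA may have been missed.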

How the data were processed

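Per the submitters' processing notes, the reads of the 2 droplet libraries went through Cell Ranger 2.1.1 and Seurat with mm10. For annotation release, cell filters, doublets and free RNA, steps are not given in the sources used. The authors deposited 1 matrix of 14097 cells and 21041 genes, with a cell type and a CIN class per cell. The deposited values are natural logs of 1 + UMIs per 10000, because the exponential minus 1 sums to 10000 in every cell. In units of the lowest value of its cell above 0, 100% of them were whole within 0.01, and these were taken as UMI counts. A count table had been foreseen. The linear values of the log-normalised file were averaged over cells instead, and the recovered UMIs gave the intervals.

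The genes of the rule, the gene lists and the comparisons were chosen with earlier results of these data known. Named genes were the 12 largest ratios in either direction, for genes seen in 10% or more of the cells and at a level of 0.5 or more on the higher side, and up to 4 genes each way of each list past 1.5-fold, beside a list of genes always given. Predicted, mitochondrial, ribosomal protein, hemoglobin, immune receptor and sex-linked check genes were not eligible. A few further members and cluster values were added after their values were seen. A side with 0 UMIs was set to 3 UMIs. Shares have Clopper-Pearson intervals and ratios exact conditional intervals of summed UMIs, which cover counting error only.

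Leiden clusters used 2000 variable genes without the 6 of the rule, 20 principal components, 15 neighbours and a resolution of 1. Clusters 3 and 7 were set apart after clustering because over 90% of their cells met the rule. Doublets were marked with Scrublet (expected rate 6%), 142 CIN_high cells (2.29%) and 249 CIN_low cells (3.15%). They stayed in the main values and included 10 telocyte-like cells. In simulated fibroblasts (9928 genes), 100% of genes changed 4-fold, 98% of those changed 2-fold and 4.59% of unchanged genes passed 1.5-fold. The simulated counts were Poisson draws from a shared profile at the depth of each cell, apart from the changed genes. They held no other differences between cells, so these shares need not hold for genes carried by few cells. Python 3.11.15, numpy 2.4.6, pandas 2.3.3, SciPy 1.17.1, scikit-learn 1.9.0, leidenalg 0.10.2, Scanpy 1.11.5 and matplotlib 3.10.9 were used. Gene coordinates are those of GENCODE for mm10, upstream sequences those of RefSeq.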

Additional observations from a re-analysis of the deposited data

How the results depend on the processing

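The share of telocyte-like cells depends on the rule and on depth. Against 47.9%, it was 32.0% with at least 3 of the 6 genes, 33.1% without Bmp5 among them, 40.4% without Wnt5a, 43.1% without Bmp7, 44.6% without F3 and 36.4% with each cell thinned to 3500 UMIs, which left out 24 telocyte-like and 62 other fibroblasts. Against fibroblasts with none of the 6 genes, 1591 genes were at least 1.5-fold higher, and with a UMI asked for in at least 10% of cells, 433 were lower, compared with 1026 and 701. The counts of genes under the other alternatives stayed within 1.5 times of these, and 7 to 10 lists with at least 5 measured genes, against 8, had a median past 1.5-fold. Of 162 named genes past 1.5-fold, 151 to 162 were past it in the same direction under each of 10 alternatives. Among these named genes, only neutrophil genes reversed in direction. In thinned cells the log2 ratio was -1.20 for S100a8, -1.21 for S100a9 and -0.88 for Retnlg. Without marked doublets it was -0.015 for S100a8 and -0.20 for Retnlg, and without clusters 10 and 11, chosen after seeing the data, -0.015 and -0.20. The clusters over 90% telocyte-like held 41.0% to 43.0% of these cells under every clustering setting run. No paired analysis was possible because each class has 1 library and both sets of cells come from it. With 1 library there is no estimate of the spread between animals.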
